A study of Homo sapiens with 87 samples.

Results

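This account compares 10 HAP1 knockout clones in 2 sets of 5. The look-alike clones are labelled BCL11A 2426-10, BCL11B 2432-10, BCL7A 2434-10, SMARCD1 2478-6 and SMARCD3 2480-12. The later clones are labelled DPF3 2776-1, DPF2 2777-4, PHF10 2778-11, DPF1 2779-11 and SMARCD2 2782-10. The number before the hyphen is the line number, and the later clones have the higher ones. The sets were chosen by measured values, since the gene levels of these same libraries had shown the first 5 clones to resemble each other, so every value that sets one set against the other is a description without a test. The sets hold 30 of the 75 libraries of the knockout table, 3 per clone, and the series has 87 samples in all.

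HAP1 is a near-haploid human cell line derived from a chronic myeloid leukaemia. All 10 clones were grown in the same medium, each is labelled as a knockout of 1 gene of the BAF complex, and wild-type HAP1 (C631) is given beside them. Polyadenylated RNA was sequenced from a strand-marking library kit. Each of these 10 genes was knocked out in 1 clone only, so the loss of a subunit and the history of the clone that carries it cannot be told apart within a clone. Nothing in the labels ties the 3 libraries of a clone to separate cultures, so a p-value here measures the spread between libraries, which may be technical.

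BAF, the mammalian SWI/SNF complex, uses ATP to slide or evict nucleosomes. SMARCD1, SMARCD2 and SMARCD3 are alternative forms of a core subunit. DPF1, DPF2, DPF3 and PHF10 are alternative PHD-finger subunits, of which PHF10 belongs to the PBAF form of the complex. BCL7A is an accessory subunit, and BCL11A and BCL11B are zinc-finger transcription factors that join the complex.

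The look-alike libraries held 17994105 to 22783042 counts each and the later libraries 17804495 to 22585791. The lowest deposited value is 1 rather than 0, and between 42.05% and 46.1% of the listed genes stood at it in a library of either set. Levels are given in CPM, the counts of the 3 libraries of a clone summed and scaled to a common library total, with TMM factors over the 25 groups of the table. The summed level of 10 blood lineage markers was between 40.5 and 56.5 CPM in the look-alike clones, between 41.6 and 107 CPM in the later clones and 69.8 CPM in wild type, with 4 of the 10 below 1 CPM in all 10 clones. The sums of 5 fibroblast markers were 8 to 97.4 CPM in the look-alike clones, 46.7 to 174 CPM in the later clones and 102 CPM in wild type. For 5 epithelial markers they were 52.2 to 141 CPM in the look-alike clones and 59.8 to 99.9 CPM in the later clones, and for 5 markers of HEK293, a kidney-derived line, 129 to 234 CPM in the look-alike clones and 160 to 216 CPM in the later clones. The part of these sums in the differences between the sets was not tested. The summed level of 5 markers of A549, a lung carcinoma line also named in the labels, was between 24 and 44.1 CPM in the look-alike clones, between 2.54 and 25.3 CPM in the later clones and 8.29 CPM in wild type. NKX2-1, a transcription factor of lung and thyroid, made up 22 to 42.6 CPM of it in the look-alike clones and 1.19 to 23.7 CPM in the later clones, and 3 of the 5 markers were below 1 CPM in all 10 clones.

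The likeness of the first 5 clones was uneven. Across 15467 genes, every pair of clones was compared in a model of all 30 libraries. A called gene had an edgeR adjusted p under 0.05 and differed by 1 or more on the log2 scale in either direction. The BCL11A and BCL11B clones differed in 122 called genes, BCL11B and SMARCD3 in 131, and BCL11A and SMARCD3 in 292. The SMARCD1 clone differed from those 3 clones in 440 to 516 genes. The BCL7A clone differed from the other 4 look-alike clones in 495 to 692 genes, and from the later clones PHF10, DPF1 and DPF2 in 402, 460 and 487 genes. From the later clones SMARCD2 and DPF3 it differed in 645 and 653 genes. By this count BCL7A 2434-10 went against the name of its set for PHF10, DPF1 and DPF2, but not for SMARCD2 and DPF3. Pairs of later clones differed in 321 to 641 genes (2.08% to 4.14%). Pairs made of a look-alike and a later clone differed in 402 to 1024 (2.6% to 6.62%), and pairs of look-alike clones in 122 to 692 (0.789% to 4.47%). Likeness in these same libraries chose the look-alike clones, so low counts among them were partly fixed in advance. The counts are a description, and nothing is read from their order between the sets.

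**Figure D1:**
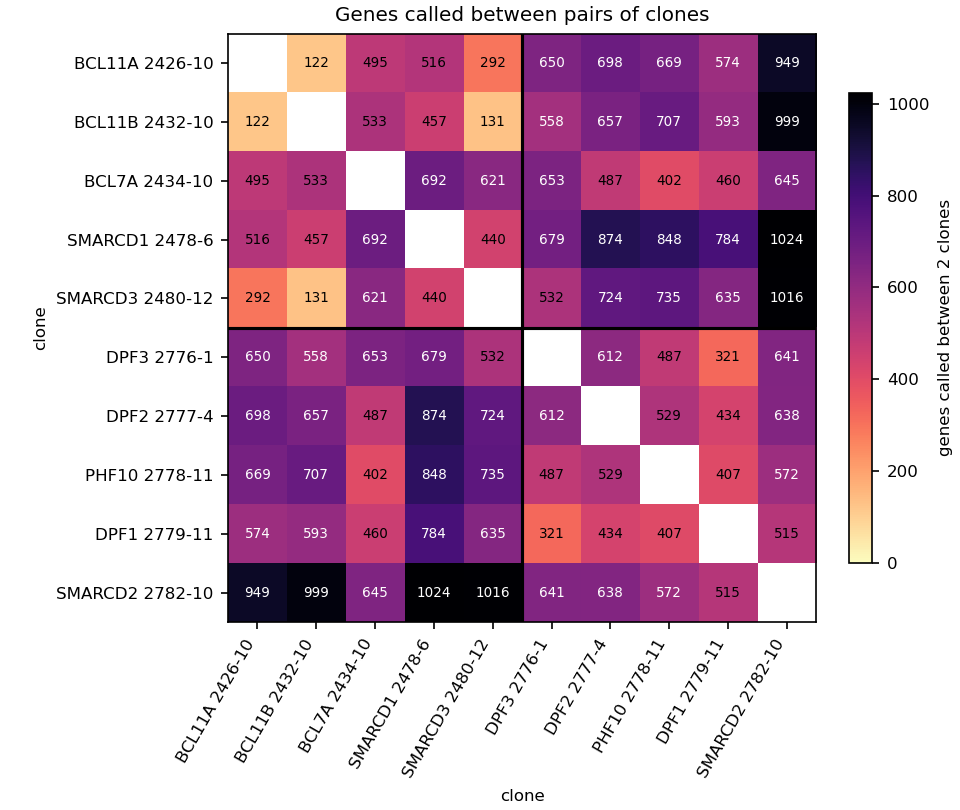
Number of genes called between every pair of the 10 clones (edgeR quasi-likelihood test, adjusted p under 0.05 and a log2 change of 1 or more either way), with the look-alike clones in the first 5 rows and columns and the later clones in the last 5. The pairs among BCL11A, BCL11B and SMARCD3 have 122 to 292 called genes, while BCL7A has 402 to PHF10 and 692 to SMARCD1. Likeness in these same libraries chose the look-alike clones, so the counts are a description.

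The transcript of the targeted gene was read in each clone against the other 4 clones of its set. An insertion or deletion can disrupt a protein and leave its mRNA in place, so this level checks a label only where it falls. In the look-alike set, SMARCD1 fell in its own clone to 11.2, 11.2 and 12.9 CPM per library, against clone levels of 89 to 106 CPM in the other 4 (log2 fold change -3.04, SE 0.146, adjusted p = 3.17e-14 by edgeR's quasi-likelihood test). SMARCD3 had 15.7, 16.7 and 19.1 CPM in its own clone, against 21.6 to 26.4 CPM, and passed the test but not the fold threshold (-0.56, SE 0.105, edgeR adjusted p = 0.000807). BCL7A had 52.3 ± 7.17 CPM in its own clone (SD, n = 3 libraries), against 59.2 ± 6.33 CPM over the other 4 clones (SD, n = 4 clones), and BCL11A had 8.28 ± 1.84 CPM against 6.52 ± 1.8 CPM. Neither passed the test, with edgeR adjusted p-values of 0.13 for BCL7A and 0.113 for BCL11A. BCL11B was higher in the clone labelled BCL11B, with 5.29, 7.76 and 7.34 CPM against clone levels of 1.74 to 4.05 CPM (1.16, SE 0.129, edgeR adjusted p = 7.07e-07).

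All 5 later clones had less of their targeted transcript. DPF2 fell to 6.04 ± 1.44 CPM in its own clone, against 83.8 ± 5.13 CPM over the other 4 (log2 fold change -3.82, SE 0.105). PHF10 fell to 19.5 ± 4.68 CPM, against 94.2 ± 3.92 CPM (-2.25, SE 0.115). SMARCD2 fell to 24 ± 2.62 CPM, against 85.7 ± 5.91 CPM (-1.86, SE 0.0702). The 2 weakly expressed genes DPF3 and DPF1 fell by 1.25 (SE 0.144) and 1.23 (SE 0.188) on the log2 scale. The edgeR adjusted p of these 5 lay between 2.29e-19 and 5.95e-05. Of all genes read, 1.82% were called lower in DPF3, 0.866% in DPF2, 1.07% in PHF10, 0.808% in DPF1 and 1.56% in SMARCD2. In the look-alike clones 0.446% were called lower in BCL11A, 0.343% in BCL11B, 1.15% in BCL7A, 2.09% in SMARCD1 and 0.84% in SMARCD3.

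Between the 2 sets, 16841 genes could be read, and the median difference over all of them was 0.00258 on the log2 scale. In 614 genes (3.65%) the 5 clone levels of one set did not overlap those of the other. A marker was defined as such a gene with a mean difference of at least 1 on the log2 scale. There were 128 markers, 70 higher in the look-alike clones (0.416% of genes) and 58 lower (0.344%). The sets were chosen for their likeness in these same libraries, so nothing is read from these shares. Close to the limit, KLHL35 was a marker at 1.01 and PCP4L1, at 0.997, was not. In 18 markers the gap between the sets was itself at least 1, 6 of them higher in the look-alike clones (0.0356%) and 12 lower (0.0713%). SHISA4 was just inside that limit, with a gap of 1.07, and FUZ just outside, with 0.985.

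**Figure D2:**
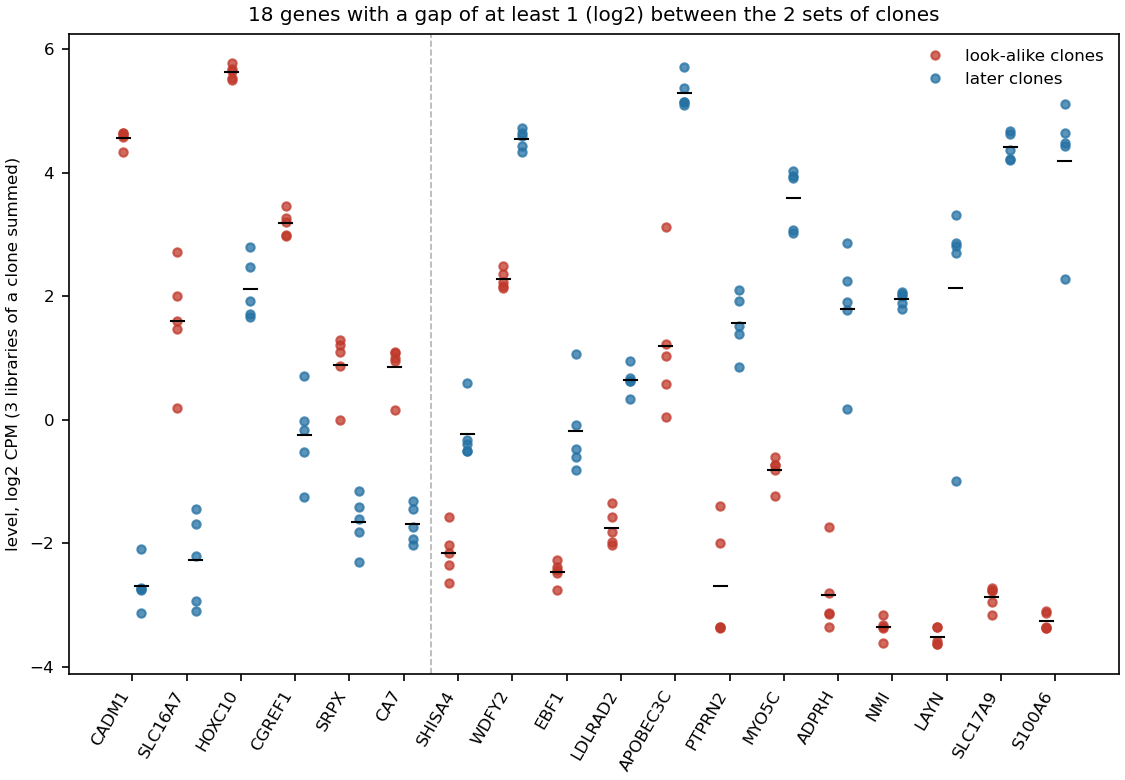
Level of the 18 genes with a gap of at least 1 (log2) between the sets, as log2 CPM of each clone, with look-alike clones in red on the left of each pair, later clones in blue on the right, and a black line at each set's mean. CADM1, SLC16A7, HOXC10, CGREF1, SRPX and CA7 stand higher in the look-alike clones, and the 12 genes to the right of the dashed line stand lower. LAYN in the PHF10 clone and S100A6 in the DPF1 clone lie apart from the rest of the later clones.

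Of the 12 lower genes, 6 reached 5 CPM in the later clones. S100A6, a small calcium-binding protein, had 0.0815 CPM in the BCL11A clone, 0.0636 in BCL11B, 0.0651 in BCL7A, 0.0837 in SMARCD1 and 0.0631 in SMARCD3. The later clones had 22.3 CPM in DPF3, 21.5 in DPF2, 34.5 in PHF10, 4.82 in DPF1 and 25.1 in SMARCD2. In 8 of the 15 look-alike libraries S100A6 stood at the lowest deposited value, and no look-alike library had a count above 2. The difference between the sets was -7.48 on the log2 scale (SE 0.498, n = 5 clones each).

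SLC17A9, a transporter that loads ATP into vesicles, had between 0.0788 and 0.117 CPM in the look-alike clones and between 18.4 and 25.4 CPM in the later clones (-7.32, SE 0.134). LAYN, a membrane receptor for hyaluronan, had 0.0473 to 0.0652 CPM in the look-alike clones, where 13 of 15 libraries stood at the lowest value. In the later clones it had 7.02 CPM in DPF3, 9.86 in DPF2, 0.466 in PHF10, 7.21 in DPF1 and 6.45 in SMARCD2 (-5.67, SE 0.79). The sets did not overlap in either gene, although the PHF10 clone lay far below the other later clones in LAYN.

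MYO5C, an unconventional myosin that carries vesicles along actin, had 0.394 to 0.62 CPM in the look-alike clones and 8.16 to 16.2 CPM in the later clones (-4.45, SE 0.25). APOBEC3C, a cytidine deaminase that restricts retroelements, had 2.32 CPM in the BCL11A clone, 1.45 in BCL11B, 8.67 in BCL7A, 2.01 in SMARCD1 and 0.993 in SMARCD3, against 34 to 52.5 CPM in the later clones (-4.12, SE 0.539). WDFY2, a protein of early endosomes, had 4.39 to 5.58 CPM in the look-alike clones and 20.1 to 26.3 CPM in the later clones (-2.29, SE 0.0975). WDFY2 kept a readable level in every library of both sets. Genes near the lowest deposited value have log2 differences that depend on the constant added before the logarithm: SLC17A9 stood at -6.88 with a prior count of 5.

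The other 6 lower genes were named after their values were seen. NMI, a protein that binds MYC and STAT factors, had 0.0488 to 0.0788 CPM in the look-alike clones and 3.45 to 4.16 CPM in the later clones (-5.35, SE 0.0909). ADPRH, which removes ADP-ribose from arginine, had 0.0652 to 0.268 CPM in the look-alike clones and 1.1 to 7.23 CPM in the later clones. PTPRN2, a phosphatase-like protein of secretory vesicles, had 0.0631 to 0.35 CPM in the look-alike clones and 1.79 to 4.24 CPM in the later clones. EBF1, a transcription factor of the B lineage, LDLRAD2 and SHISA4 had at most 0.359 CPM in any look-alike clone, and between 0.533 and 2.07 CPM in the later clones. All 3 were weakly expressed in both sets.

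Of the 6 higher genes, 3 reached 5 CPM. CADM1, an immunoglobulin-family cell adhesion molecule, had 23.9 CPM in the BCL11A clone, 24.4 in BCL11B, 25.1 in BCL7A, 20.2 in SMARCD1 and 25 in SMARCD3. No later clone had more than 0.2 CPM, and no later library had a count above 5 (7.24, SE 0.178). HOXC10, a homeobox transcription factor, had 45.1 to 55 CPM in the look-alike clones and 3.13 to 6.89 CPM in the later clones (3.49, SE 0.226). CGREF1, a secreted protein with EF-hands, had 7.79 to 11 CPM in the look-alike clones and 0.387 to 1.6 CPM in the later clones (3.40, SE 0.335). SLC16A7, a monocarboxylate transporter, CA7, a carbonic anhydrase, and SRPX, named after their values were seen, lay between 0.96 and 6.53 CPM in the look-alike clones and between 0.0832 and 0.417 CPM in the later clones.

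The 18 genes lay on 13 chromosomes and mostly stood alone. Of their 36 immediate neighbours among the genes read, in RefSeq order, 34 differed by less than 1 on the log2 scale between the sets. The other 2 were HOXC11 and HOXC9, the neighbours of HOXC10. HOXC9 differed by 1.92 and HOXC11 by 1.33, but the sets overlapped in both: HOXC9 was highest in the DPF1 clone, at 6.98 CPM, and HOXC11 in the SMARCD1 clone, at 8.94 CPM. HOXC4, in the same cluster, was a marker at 1.34 to 1.8 CPM in the look-alike clones and 0.556 to 0.787 CPM in the later clones. HOXC5 was also a marker, at 0.505 to 0.852 CPM in the look-alike clones and 0.179 to 0.421 CPM in the later clones (1.25, SE 0.246). HOXC8 differed by -0.27 (SE 0.169). The difference was therefore not shared by all genes of the cluster.

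Promoter windows from RefSeq (GRCh38.p14, 250 bases before to 50 after the start of the gene) were found for 11 of the 18 genes. They are shown for the 3 of the 9 genes with at least 5 CPM that had one. S100A6 and MYO5C were lower in the look-alike clones, and CGREF1 was lower in the later clones. Capitals mark CG dinucleotides, the site of DNA methylation in human cells, searched as the letters CG, which read the same on both strands.
S100A6, chr1:153535942-153536241, minus strand: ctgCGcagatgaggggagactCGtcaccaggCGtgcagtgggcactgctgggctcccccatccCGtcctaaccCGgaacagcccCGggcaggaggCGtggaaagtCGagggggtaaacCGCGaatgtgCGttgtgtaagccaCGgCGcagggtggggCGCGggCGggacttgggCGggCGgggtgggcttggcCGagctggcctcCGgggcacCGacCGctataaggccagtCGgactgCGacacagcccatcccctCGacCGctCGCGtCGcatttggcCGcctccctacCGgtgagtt
MYO5C, chr15:52295755-52296054, minus strand: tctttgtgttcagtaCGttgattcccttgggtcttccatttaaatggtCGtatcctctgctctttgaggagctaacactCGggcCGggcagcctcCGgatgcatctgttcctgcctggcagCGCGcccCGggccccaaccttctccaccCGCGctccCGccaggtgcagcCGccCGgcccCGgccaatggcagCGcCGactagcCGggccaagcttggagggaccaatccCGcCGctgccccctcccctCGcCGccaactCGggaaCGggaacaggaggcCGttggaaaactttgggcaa
CGREF1, chr2:27119079-27119378, minus strand: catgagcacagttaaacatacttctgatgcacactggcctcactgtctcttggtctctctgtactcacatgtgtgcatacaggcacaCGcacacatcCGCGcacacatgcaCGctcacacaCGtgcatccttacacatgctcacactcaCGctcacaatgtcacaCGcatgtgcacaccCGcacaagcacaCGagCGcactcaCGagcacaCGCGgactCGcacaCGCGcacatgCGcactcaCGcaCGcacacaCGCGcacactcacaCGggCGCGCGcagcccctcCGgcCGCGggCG
The S100A6 window held 31 CG, the MYO5C window 24 and the CGREF1 window 29. Of 35114 promoter windows of the same length, 20.6% held at least 31, 33.9% at least 24 and 24.2% at least 29. Across the 11 windows the number ran from 1 in LDLRAD2 and SLC16A7 to 31 in S100A6, with a median of 14 over all windows. DNA methylation was not measured.

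In some genes the PHF10 clone, a later clone, stood at the level of the look-alike clones. Without it, 24 more genes had a gap of at least 1, 13 higher and 11 lower in the look-alike clones. By construction such genes are mostly added when any clone is left out, and the other later clones added 2 (DPF3) to 12 (DPF2). Over the 128 markers the PHF10 clone lay nearer the look-alike mean in 13.3%, against 12.5% for DPF2. A marker requires every later clone to lie outside the look-alike levels, so these shares are low by definition and nothing is read from them. Those given here were named after their values were seen. COL11A1, a chain of fibrillar collagen, had 163 to 246 CPM in the look-alike clones, against 188 CPM in PHF10 and at most 0.13 CPM in the other 4 later clones. SLC7A3, a cationic amino acid transporter, had 0.134 to 0.261 CPM in the look-alike clones, against 0.2 CPM in PHF10 and 67.3 to 79 CPM in the other 4. CHMP4C, an ESCRT-III subunit, had 15.4 to 21 CPM in the look-alike clones, against 11.6 CPM in PHF10 and 0.184 to 0.276 CPM in the other 4. NKX2-1 had 22 to 42.6 CPM in the look-alike clones, against 23.7 CPM in PHF10 and 1.19 to 5.47 CPM in the other 4. In the set comparison as chosen, COL11A1 (8.33, SE 2.08) and SLC7A3 (-6.82, SE 1.67) were no markers because of this clone.

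BCL7A 2434-10 stood apart from its own set in other genes. Without it the markers numbered 123 higher and 152 lower, against 70 and 58 with it, and 29 more genes had a gap of at least 1. Leaving out another look-alike clone added 0 (BCL11A) to 13 (SMARCD1) such genes. LIN28A, an RNA-binding protein of embryonic cells, had 254 CPM in the BCL7A clone and 1.03 to 4.56 CPM in the other 4 look-alike clones, against 58.2 to 118 CPM in the later clones. PDGFRA, a receptor tyrosine kinase of mesenchymal cells, had 78.5 CPM in the BCL7A clone and 1.54 to 3.83 CPM in the other 4, against 41 to 166 CPM in the later clones. EMP1, an epithelial membrane protein, had 19.1 CPM in the BCL7A clone and 0.315 to 0.62 CPM in the other 4, against 2.12 to 16.9 CPM in the later clones. These 3 genes were named after their values were seen.

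Wild type stood mostly with the later clones, which the choice of sets did not use. Of the 128 markers, wild type lay nearer the look-alike mean in 17 (13.3%), made up of 12 of the 70 higher and 5 of the 58 lower genes. As the mean of 3 wild-type libraries with its SD, S100A6 had 19.7 ± 1.31 CPM, SLC17A9 13.6 ± 2.77, LAYN 6.73 ± 0.577, MYO5C 11.9 ± 1.42, APOBEC3C 30.7 ± 3.02 and WDFY2 21.7 ± 2.88 CPM. These levels are near those of the later clones, and HOXC10 was too, at 5.26 ± 0.237 CPM. Some genes lay between the sets in wild type: CADM1 at 2.57 ± 1.91 CPM, COL11A1 at 20.5 CPM and CHMP4C at 2.32 CPM. Each is below every look-alike clone and above every later clone, with PHF10 as the exception for COL11A1 and CHMP4C.

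**Figure D3:**
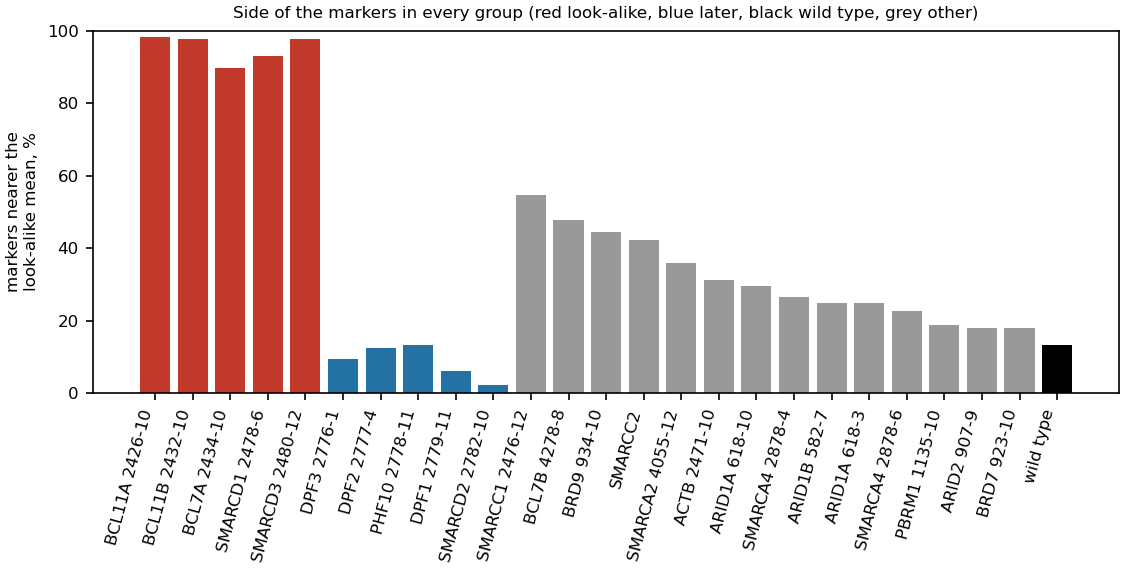
Share of the markers whose level lies nearer the mean of the look-alike clones than that of the later clones, in percent, for each of the 25 groups. The look-alike (red) and later (blue) bars are fixed by the choice of markers; among the other groups SMARCC1 2476-12 has the highest share, at 54.7%, BCL7B 4278-8 has 47.7%, and wild type (black) has 13.3%.

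The other 14 clones of the table held these levels in different mixtures. LAYN, NMI, WDFY2, HOXC10, ADPRH and LDLRAD2 stood at the level of the look-alike clones, within 0.5 on the log2 scale of their range, in SMARCC1 2476-12 and in no other group. PTPRN2 stood there in 9 of the other 15 groups, APOBEC3C in 8 and SHISA4 in 6, of which wild type was 1. CADM1 stood there in 5, with 29.7 CPM in SMARCC1 2476-12, 31.1 in ARID1B 582-7, 25.6 in BRD9 934-10, 18.2 in SMARCA4 2878-6 and 22.1 in BCL7B 4278-8. The 2 clones of SMARCA4 and the 2 of ARID1A show how far clones of 1 gene can differ: CADM1 had 37.2 CPM in ARID1A 618-10 and 0.257 CPM in ARID1A 618-3, and SLC17A9 had 1.47 CPM in SMARCA4 2878-4 and 9 CPM in SMARCA4 2878-6.

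**Figure D4:**
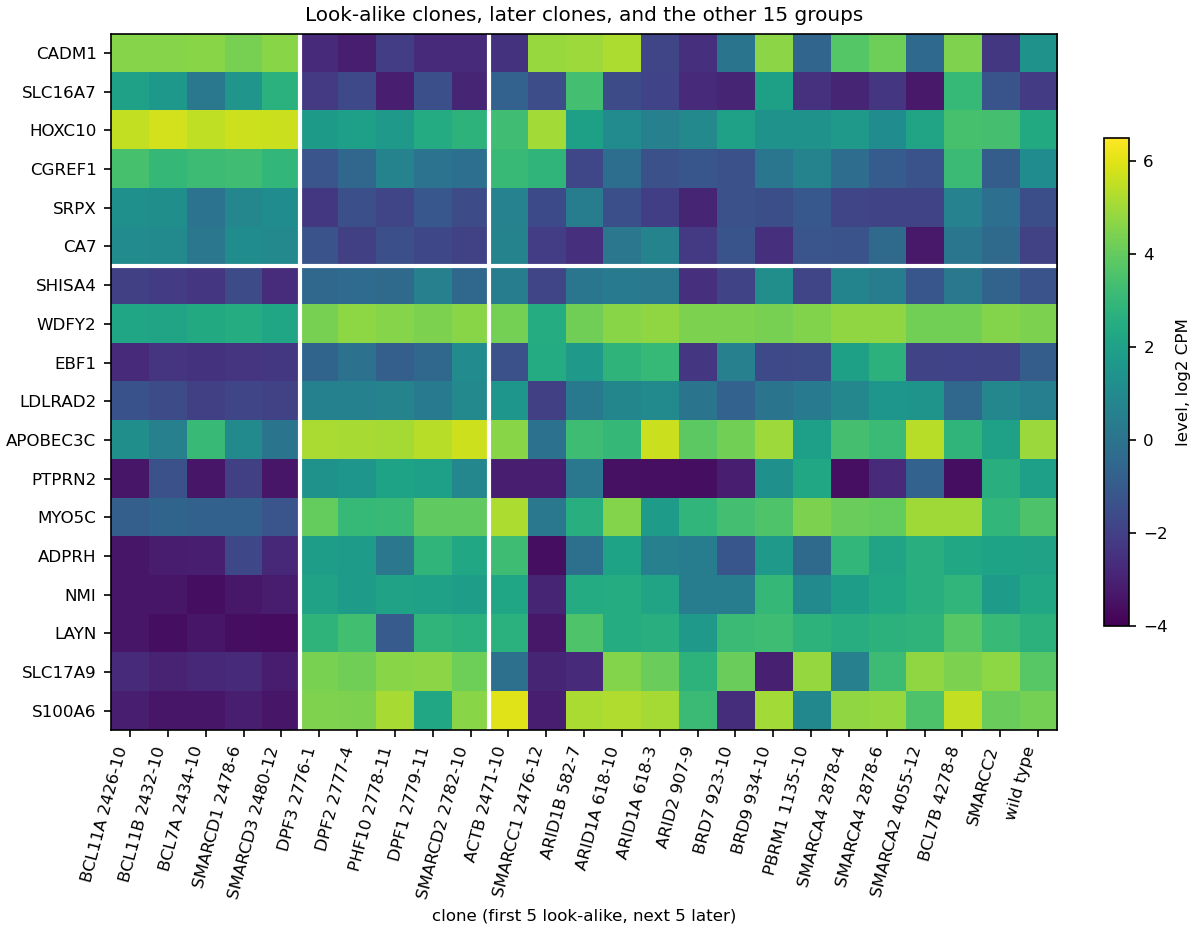
Level of the 18 separated genes, as log2 CPM (colour), in the 5 look-alike clones, the 5 later clones and the other 15 groups. SMARCC1 2476-12 has the levels of the look-alike clones in 13 of the 18 genes, and BCL7B 4278-8 in 8.

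Tests with edgeR, two-sided, were possible on libraries the rule had not used. The clones ACTB 2471-10 and SMARCC1 2476-12 have line numbers between those of the first and the last look-alike clone, and each was compared with wild type in a model of the 45 libraries outside the 10 clones. These comparisons were added after the data were seen and share the wild-type libraries. In SMARCC1 2476-12, 3.59% of 15810 genes were called higher and 2.57% lower (6.16% together). Of the 18 separated markers, 13 were called in the direction of the look-alike clones, 1 in the other direction and 4 not. WDFY2 fell to 5.69 ± 0.901 CPM, against 21.7 ± 2.88 CPM in wild type (SD, n = 3; log2 fold change -1.89, SE 0.102, edgeR adjusted p = 2.79e-17). HOXC10 rose to 33 ± 5.55 CPM, against 5.26 ± 0.237 CPM (2.67, SE 0.216, edgeR adjusted p = 2.29e-12), and CADM1 to 29.7 ± 2.13 CPM, against 2.57 ± 1.91 CPM (3.57, SE 0.262).

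S100A6, SLC17A9, LAYN, NMI, ADPRH, PTPRN2 and APOBEC3C fell by between 4.99 and 7.75 on the log2 scale in SMARCC1 2476-12. EBF1 rose instead, to 5.43 ± 1.34 CPM, against 0.503 ± 0.268 CPM in wild type. CA7 had a log2 fold change of -0.15, SRPX of -0.16, SHISA4 of -0.54 and SLC16A7 of 0.71, none of which passed the test. Of the 24 genes separated without the PHF10 clone, 20 were called in the direction of the look-alike clones in SMARCC1 2476-12.

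ACTB 2471-10 gave a different picture. There 3.19% of genes were called higher and 1.9% lower (5.09% together), and 6 of the 18 separated markers in the direction of the look-alike clones, namely CGREF1, CA7, SRPX, SLC16A7, SLC17A9 and PTPRN2. CGREF1 rose to 8.38 ± 1.45 CPM, against 2.15 ± 0.816 CPM in wild type (1.98, SE 0.257, edgeR adjusted p = 2.31e-07). Another 6 were called in the other direction, among them S100A6, at 63 ± 3.26 CPM against 19.7 ± 1.31 CPM (1.71, SE 0.169), and CADM1, at 0.15 ± 0.0477 CPM against 2.57 ± 1.91 CPM. LAYN (-0.03, SE 0.22) and WDFY2 (-0.08, SE 0.0943) did not pass the test. In either direction, 57 of the 124 markers that could be tested were called in ACTB 2471-10 and 72 in SMARCC1 2476-12, so the markers were often called whichever way they moved.

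In a further test the same 2 clones were set as 1 group against 9 other knocked-out genes outside the 10 clones, with counts summed per gene. There edgeR called 2 of 17953 genes higher (0.0111%) and 0 lower, and DESeq2 37 higher and 12 lower. By edgeR 715 had an unadjusted p under 0.05. RHOD, a small GTPase of endosomes, was the 1 marker among the 2 genes called by edgeR. It had 10.5 CPM in ACTB 2471-10 and 14.8 CPM in SMARCC1 2476-12, against 0.0475 to 0.0855 CPM in the other unused knockout groups (7.61, SE 0.203, edgeR adjusted p = 4.11e-09). RHOD had 10.8 to 15.6 CPM in the look-alike clones, against 5.95 CPM in SMARCD2 and at most 0.1 CPM in the other 4 later clones. The other called gene was COL11A1, with 1.25 CPM in ACTB 2471-10 and 128 CPM in SMARCC1 2476-12, against at most 0.191 CPM. None of the 18 separated markers was called by edgeR, 4 had an unadjusted p under 0.05, and DESeq2 called 2 of them, CGREF1 and HOXC10.

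Each clone also differed from the other 4 of its set. The number of genes called ran from 158 in BCL11B (1.02%) to 519 in BCL7A (3.36%) among the look-alike clones and from 267 in DPF1 (1.73%) to 494 in SMARCD2 (3.19%) among the later clones. Called higher were 0.815% of genes in BCL11A, 0.679% in BCL11B, 2.2% in BCL7A, 0.873% in SMARCD1 and 0.776% in SMARCD3. In the later clones 0.705% were called higher in DPF3, 2.31% in DPF2, 1.53% in PHF10, 0.918% in DPF1 and 1.64% in SMARCD2. In the BCL11A clone ZNF518B fell to 0.214 ± 0.127 CPM, against 8.57 to 28 CPM in the other 4 (-6.37, SE 0.186, edgeR adjusted p = 1.31e-18). KCTD11 fell with it (-5.67, SE 0.256), FRMD4A rose to 14.5 ± 2.25 CPM, against 0.472 to 1.1 CPM (4.32, SE 0.177), and HCLS1, a blood-cell adaptor protein, rose to 83 ± 9.41 CPM (3.81, SE 0.107), although SMARCD1 had 81 CPM as well.

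These levels differed from the mean of the other 4 clones of a set, though not always from each of them. They often recurred in clones outside the set: FRMD4A also had 14.3 CPM in the later clone DPF1 and 15.4 CPM in ACTB 2471-10. Wild type had 8.47 CPM of FRMD4A and 39.8 CPM of HCLS1. Rises and falls within a set are against the other 4 clones and not against wild type. In BCL11B, NLGN4X (4.98) and ARHGEF34P (4.24) rose and MB21D1 (-3.29) and ANGPTL2 (-2.85) fell. In BCL7A, POSTN, a matrix protein, rose to 26.8 ± 2.27 CPM, against at most 0.151 CPM in the other 4 (7.75, SE 0.2), LIN28A rose by 7.13 (SE 0.16), and NLGN4X (-3.69) and NPTX2 (-2.57) fell. In SMARCD1, GABRA5, a GABA receptor subunit, rose to 9.82 ± 0.622 CPM, against at most 0.0652 CPM (7.25, SE 0.187). However, 4 later clones had 9.51 to 28.9 CPM of GABRA5 and wild type had 5.82 CPM. ARHGAP4 also rose in SMARCD1 (4.52), and DLK1 (-6.28) and VCAN (-5.08) fell. In SMARCD3, NLGN4X (2.89) and CYP1B1 (2.84) rose and HCLS1 (-5.10) and TMEM35 (-3.22) fell. These values are log2 fold changes, each with an edgeR adjusted p of at most 1.83e-07. NLGN4X had 0.147 CPM in BCL7A and 6.02 CPM in SMARCD3, both within the 0.067 to 18.8 CPM of the other 4 clones. TMEM35 had 0.737 CPM in SMARCD3, also within the range of the other 4, which began at 0.435 CPM.

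The later clones likewise differed from each other. In DPF3, FASTKD2, a mitochondrial RNA-binding protein, rose to 25.4 ± 2.76 CPM, against 0.114 to 1.84 CPM in the other 4 (6.63, SE 0.14), with 14.9 CPM in wild type, ALDH1A2 rose (6.04), and VCAN (-4.53) and ZNF660 (-3.65) fell. In DPF2, EFS (5.46) and ZNF841 (4.45) rose, MARC1 (-8.03) fell, and GTSF1, a protein of the piRNA pathway, fell to 0.632 ± 0.0748 CPM, against 68 to 106 CPM (-7.14, SE 0.081). In PHF10, COL11A1 rose to 190 ± 6.52 CPM, against at most 0.13 CPM (10.68, SE 0.0865), FAM19A5 rose (7.46), and SLC7A3 (-8.47) fell. In DPF1, FZD10 (5.01) and HOXC9 (4.80) rose and WBP5 (-5.46) and NAP1L2 (-4.75) fell. In SMARCD2, SCARA3 (6.99) and RHOD (6.33) rose and GRIA2 (-5.53) fell. GTF2H2, a subunit of the transcription factor TFIIH, fell there to 0.531 ± 0.126 CPM, against 22.7 to 31.4 CPM (-5.59, SE 0.201), and its near-identical copies make its count uncertain. These values too are log2 fold changes, each with an edgeR adjusted p of at most 9.19e-11.

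Most gene lists held no marker. Across 29 gene lists with 530 genes read, 9 were markers (1.7%, against 0.76% of all genes), and 22 lists had none. The sets and the lists were chosen with earlier results of these data known, so nothing is read from these shares. The BAF subunits (30 read), 20 mitotic genes, 37 cytosolic ribosomal proteins, 26 genes of oxidative phosphorylation, 19 p53 targets and 25 genes of the integrated stress response had no marker. Their median differences lay between -0.06 and 0.04 on the log2 scale, against 0.00258 over all genes. Other lists without a marker had medians further from that, from -0.32 in pluripotency linked genes to 0.46 in A549 markers. Ribosomal proteins lay between -0.09 and 0.09 and mitotic genes between -0.10 and 0.14, BAF subunits between -0.65 (SMARCD1) and 0.71 (DPF2), and genes of the integrated stress response between -6.82 (SLC7A3) and 0.26 (CHAC1).

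Developmental transcription factors had 3 markers among 41 read, all higher in the look-alike clones, where 0.416% of all genes were higher markers, and 2 of the 3 lie in the HOXC cluster. FOXF1, a factor of splanchnic mesoderm, had 10.9 to 18 CPM in the look-alike clones and 1.13 to 7.7 CPM in the later clones (2.37, SE 0.466), and the others were HOXC10 and HOXC4. SFRP1, a secreted WNT antagonist, had 55.1 to 96.3 CPM in the look-alike clones and 7.41 to 47.1 CPM in the later clones (1.63, SE 0.502). LAMA4, a laminin chain, had 1.86 to 6.83 CPM in the look-alike clones and 0.279 to 1.43 CPM in the later clones (1.89, SE 0.542). ESRP1, an epithelial splicing factor (1.16, SE 0.18), was the only marker of 12 epithelial genes read, which had a median difference of 0.02. LCP1, an actin-bundling protein of blood cells, had 0.587 to 1.26 CPM in the look-alike clones and 0.246 to 0.449 CPM in the later clones (1.12, SE 0.249). It was the only marker of 13 blood lineage genes read, among which TAL1 differed by -1.72. RELN, the extracellular protein reelin, had 0.619 to 3.77 CPM in the look-alike clones and 4.07 to 32.9 CPM in the later clones (-2.24, SE 0.735). PDGFRB had 0.207 to 0.586 CPM in the look-alike clones and 0.724 to 1.7 CPM in the later clones (-1.73, SE 0.328). SFRP1, LAMA4, RELN and PDGFRB were likewise each the only marker of their list.

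No chromosome shifted as a whole. A chromosome was found in RefSeq for 15209 of the 16841 genes (90.3%), and the median difference between the sets per chromosome lay between -0.017 on chromosome 10 and 0.021 on chromosome 16. Markers lay on 22 of 23 chromosomes, from 0.157% of the genes read on chromosome 9 to 1.82% on chromosome 20, where 7 of 385 were markers, and chromosome 21 had none among 144.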

How the data were processed

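Gene values deposited by the authors are expected counts, all whole numbers. The tools Trimmomatic, Bowtie, Picard and DESeq2, and the builds GRCh37 and hg19, appear in the list of names credited to the submitters' processing notes; their versions, the counting step, the annotation and the strand setting were not given in the sources used here, so overlapping, antisense and near-identical genes are uncertain. The authors' deposited log2 TPM table, quantile-normalized per the file headers, served only as an alternative. Of the columns, 8 were not matched to a labelled sample and not used. The double-loss table was not used here.

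Counts of the 3 libraries of a clone were summed, genes kept by filterByExpr, and scaled by TMM in R 4.3.3 with edgeR 4.0.16; log2 CPM used a prior count of 2. A difference is the mean of 5 look-alike clones minus that of 5 later clones, with its SE over clones. Libraries were compared with edgeR's robust quasi-likelihood test and Benjamini-Hochberg adjustment over all genes tested, two-sided; DESeq2 1.42.0 was an alternative. The steps were tested on simulated data. The comparisons of SMARCC1 and ACTB clones with wild type were added after the data were seen. Named genes were separated markers with at least 5 CPM in the higher set, targeted genes, the first 3 markers per list, and the first 2 genes per direction called in each clone at that level; genes without a symbol were only counted. Chromosomes and gene order came from RefSeq by symbol. The sets, markers and lists were chosen with earlier results of these data known. Pairs of libraries of a clone differed by more than sampling noise (chi-square per degree of freedom 7.727 to 24.66). The depth of about 20285156 counts per library (median) limits genes under 1 CPM. Some results are not reported here.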

Additional observations from a re-analysis of the deposited data

Results flagged for a closer look

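Among 46 sets of 5 clone levels checked for a clone far from the other 4, 5 had a gap above the critical value. That value is nominally passed by about 1 in 20 unselected sets. The clones, and the separated markers among these genes, were chosen by their levels, so nothing is read from the number passing. In the look-alike set CA7 had 1.07 CPM in BCL7A 2434-10, against 1.89 to 2.11 CPM in the other 4, and CADM1 had 20.2 CPM in SMARCD1 2478-6, against 23.9 to 25.1 CPM. In the later set LAYN had 0.466 CPM in PHF10 2778-11, against 6.45 to 9.86 CPM in the other 4. DPF1 2779-11 lay apart in 2 genes, with S100A6 at 4.82 CPM against 21.5 to 34.5 CPM and SHISA4 at 1.47 CPM against 0.673 to 0.764 CPM.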

How the results depend on the processing

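The counts of markers, 70 higher and 58 lower, stayed within 1.5 times under other scaling, no filter, a prior count of 5, averaged libraries and the authors' log2 TPM. Leaving out a replicate number from every clone, or a clone, gave 58 to 123 higher and 43 to 152 lower; the highest, 123 and 152, came without BCL7A 2434-10. Of the 18 separated markers, 17 stayed so with a prior count of 5, 16 with averaged libraries, 17 with log2 TPM, 16 without replicate 1 or replicate 2, and 18 without replicate 3. Without replicate 2 the genes called in BCL11A 2426-10 numbered 118 (range without a replicate 118 to 178, against 195), and SMARCD3 in its own clone (-0.61 to -0.53) no longer passed the adjusted p (0.0792), at -0.55; it was under the fold threshold throughout. Of the separated markers called between unused clones, DESeq2 gave 2 and leaving out ACTB 2471-10 gave 2 (LAYN and WDFY2), against 0, a range of 0 to 2. Without ACTB 2471-10 that group is SMARCC1 2476-12 alone, assumed to vary like the other 9; over all genes the calls then numbered 43, without SMARCC1 2476-12 66 and by DESeq2 49, against 2. In SMARCC1 2476-12 against wild type the count was 13 under every alternative, and in ACTB 2471-10 it was 5 or 6.

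Medians of 7 chromosomes moved by more than the spread between clones when a clone was left out. Over all left-out clones and replicates they ran from -0.013 to -0.002 on chromosome 1, -0.014 to 0.004 on 4, -0.005 to 0.004 on 5, 0.001 to 0.012 on 9, -0.005 to 0.004 on 12, 0.015 to 0.029 on 15 and -0.006 to 0.005 on 19. The cause was not tested. Libraries of different clones with the same replicate number deviated together (mean r 0.124, lowest -0.225). With other numbers the mean r was -0.0617. Deviations were taken from the mean of each clone, which largely fixes this second value by the first, so it is no separate baseline. Of 30 libraries, 24 correlated best with a library of their own number. Part of the spread between libraries therefore goes with the replicate number, and the main fit has no term for it. With a replicate block, 212 genes were called in BCL11A 2426-10 and 13 separated markers in SMARCC1 2476-12, and no call of a targeted gene changed. Genes near the lowest deposited value set the limit of depth.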
